A study of Mus musculus with 4 samples.

Results

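The genes described here are 10 regulators and carriers of cell growth and nutrient uptake, Myc, Mtor, Rptor, Hif1a, Slc2a1, Slc3a2, Slc7a5, Srebf1, Srebf2 and Tfrc, out of 21755 protein-coding genes that GENCODE vM21 annotates on the autosomes and X. They were chosen by name, not by a measured value, though with earlier results of these data known. The DNA examined was each gene body with 25 kb on either side, extended for Myc to 2 Mb beyond the gene. The data are DNase-seq profiles, in which dense cutting by the nuclease DNase I marks accessible chromatin of natural killer (NK) cells, innate lymphocytes that kill infected and transformed cells. The 4 libraries are biological replicates 1 to 4 of a single group of primary cells, with no treatment named, from virgin female B6CASTF1/J mice aged 2 months, an F1 hybrid of C57BL/6J and CAST. All 4 carry the same donor identifier but separate biosamples, and neither the tissue, the sort, nor whether the cells were cultured is given in the sources used here. With 1 group there was no contrast to test, and the smallest p that an exact sign-flip test over 4 libraries allows is 1 in 8, so differences are set against the spread between libraries, which may be technical.

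MYC is a transcription factor that dimerises with MAX, binds E-boxes and raises the expression of genes for ribosomes, glycolysis and amino acid uptake. The kinase mTOR, with its partner RAPTOR in complex 1, senses amino acids and growth factor signals and promotes the translation of MYC and HIF-1α and the processing of SREBP. Activated NK cells raise glucose, amino acid and transferrin uptake, and SREBP activity is known to be needed for their metabolic response to cytokines. Gene and region positions are in the mm10 build throughout. Accessible chromatin does not show that a gene is transcribed.

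A peak here is an interval called by the authors in 1 library, with 1 signal value whose scale between libraries is not stated. Peaks of the 4 libraries that touched were merged, and a merged region with peaks from 3 or 4 of the libraries was called recurrent. Genome-wide there were 36595 recurrent regions, and 100 of them lay in the member windows. The libraries held 44092, 47464, 69144 and 36247 peaks in replicates 1 to 4. Replicate 4 had no peak at 28 of the 100 regions, against 19.4% of all recurrent regions. Replicate 3 had the highest signal at 78 of the 100, against 71.5% of all. The NK label was checked against marker promoters. A recurrent region lay at 6 of 10 NK markers, 3 of 8 T cell, 3 of 6 B cell, 3 of 6 myeloid and 2 of 6 erythroid markers, against 50.3% of all genes, so these counts say little about the label. The NK markers with the highest promoter signal were Il2rb with 7.73 ± 3.91 (SD, n = 4), Prf1 with 6.14 ± 2.87 and Nkg7 with 4.57 ± 2.13. Of the other markers, Lck, Bcl11b, Ebf1, Pax5, Cebpa, Cd68, Itgam and Epor had a peak in all 4 libraries, with means from 0.739 for Epor to 2.36 for Cebpa. No library had a promoter peak at Cd3e, Cd4, Cd8a, Lyz2 or Gata1. The ratio of replicate 3 to the median of the other libraries had a median of 2.32 over the 6 NK markers with a peak in all 4 libraries, 0.581 over 2 such B cell markers and 1.41 over 10351 genes. The part of other cells in the results below was not tested.

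Of the 10 genes, 9 had a recurrent region within 1 kb of the annotated gene start, and all 10 had one within 1 kb of the start of some annotated transcript. Over all protein-coding genes the shares were 50.3% and 54.7%. In each of those 9 genes all 4 libraries had a peak at the start, which held for 47.6% of all genes. The gene without one was Hif1a, which is accessible at a start further into the gene. The median over the 10 genes of the mean promoter signal, the highest peak signal within 1 kb of the annotated start with 0 for no peak, was 6.26. The median was 0.407 over all genes and 4.58 over the 10937 genes with an open promoter. In order of mean signal the genes ran Slc3a2, Srebf2, Tfrc, Mtor, Slc7a5, Slc2a1, Rptor, Srebf1, Myc, Hif1a. Between neighbours in this order, Tfrc and Mtor, Rptor and Srebf1, Srebf1 and Myc, and Myc and Hif1a differed in the same direction in 4 of 4 libraries and by more than the SD of the difference. The other neighbouring pairs did not differ beyond that spread.

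**Figure D1:**
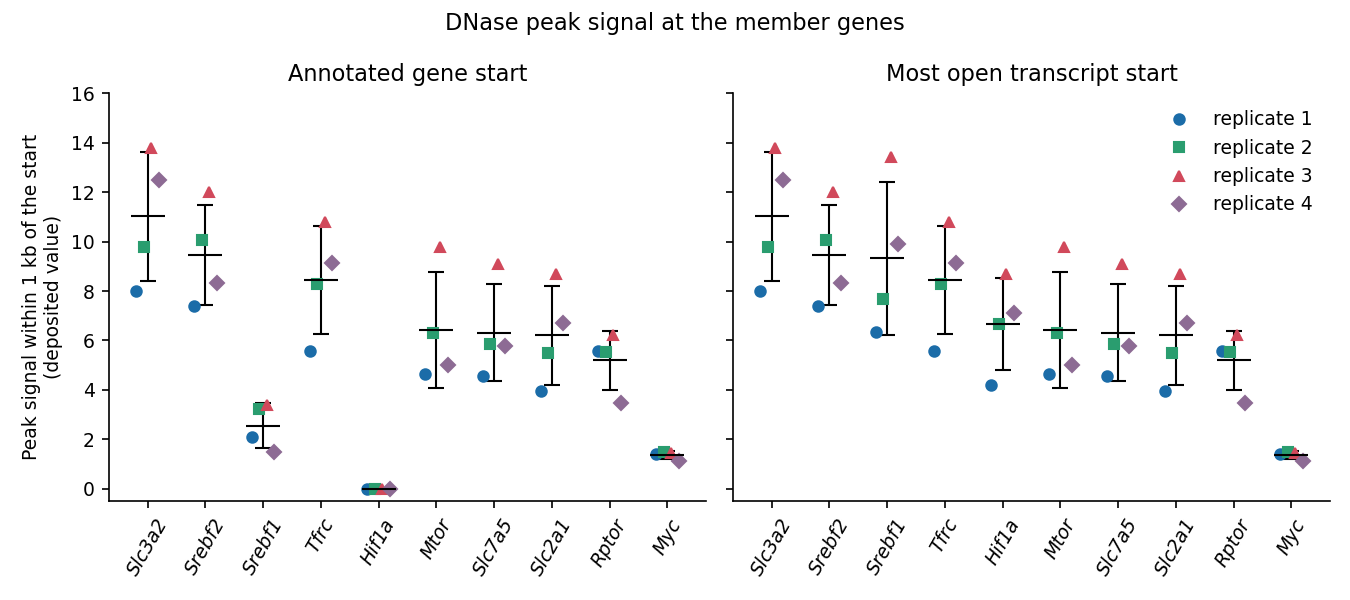
Deposited peak signal within 1 kb of the annotated gene start (left) and of the transcript start with the highest mean signal (right) for the 10 genes; coloured points are the 4 replicates, and black bars the mean and SD. Hif1a moves from 0 to a mean of 6.66 and Srebf1 from 2.55 to 9.34 when other annotated starts are used, while Myc stays at 1.36.

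Myc (ENSMUSG00000022346.15, chr15:61985391-61990374, plus strand) had the lowest promoter signal of the 9, and it was also the least variable between libraries on the deposited scale, with a coefficient of variation of 12.4%. The signal was 1.39, 1.48, 1.46 and 1.11 in replicates 1 to 4 (mean 1.36 ± 0.169 SD, n = 4). These values are from the longer peak lists. With the shorter lists the Myc mean was 1.08, and no other member's mean changed. The low variation is thus given for the longer lists only. The promoter stood between the 56.6th and 58.9th percentile of all genes in each library. Its peak was low but wide. The region at the start, chr15:61984821-61985940, spans 1120 bp, and 99.2% of recurrent promoter regions genome-wide were narrower. A second region over the first intron, chr15:61986081-61987620, is 1540 bp long, wider than 99.9% of promoter regions, and had peaks in replicates 1, 2 and 3 only.

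The deposited list of bases with a false discovery rate (FDR) below 0.05 showed how far the accessible block at Myc extends. Bases from the start through the first exon and intron, up to the end of the exon that holds the start codon at position 61988278, were listed almost without a break in replicates 1, 2 and 3. In the 1082 bp after exon 1, for example, 99.6%, 99.6% and 100% of bases were listed in these libraries. Replicate 4 listed 25.1% of exon 1 and no base from there to the end of the block. The block ended sharply. The last intron, chr15:61988279-61989345, had 2.44%, 3.75% and 7.40% of its bases listed in replicates 1 to 3, and the last exon and the 4 kb after the gene had none in any library. Over the whole 4.98 kb gene body the listed share was 58.4%, 58.7% and 59.5% in replicates 1 to 3 and 2.83% in replicate 4. Of 6137 protein-coding genes of 2 to 10 kb, 99.8%, 99.7% and 99.5% had a lower share in replicates 1 to 3, and 65.3% in replicate 4. Replicates 1, 2 and 3 lie close together and replicate 4, which is also the library with the fewest peaks, stands apart. Exons were merged over transcripts, and this look at the gene body was chosen after values were seen. The other 9 genes had mean body shares between 0.429% for Mtor and 17.1% for Slc3a2.

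**Figure D2:**
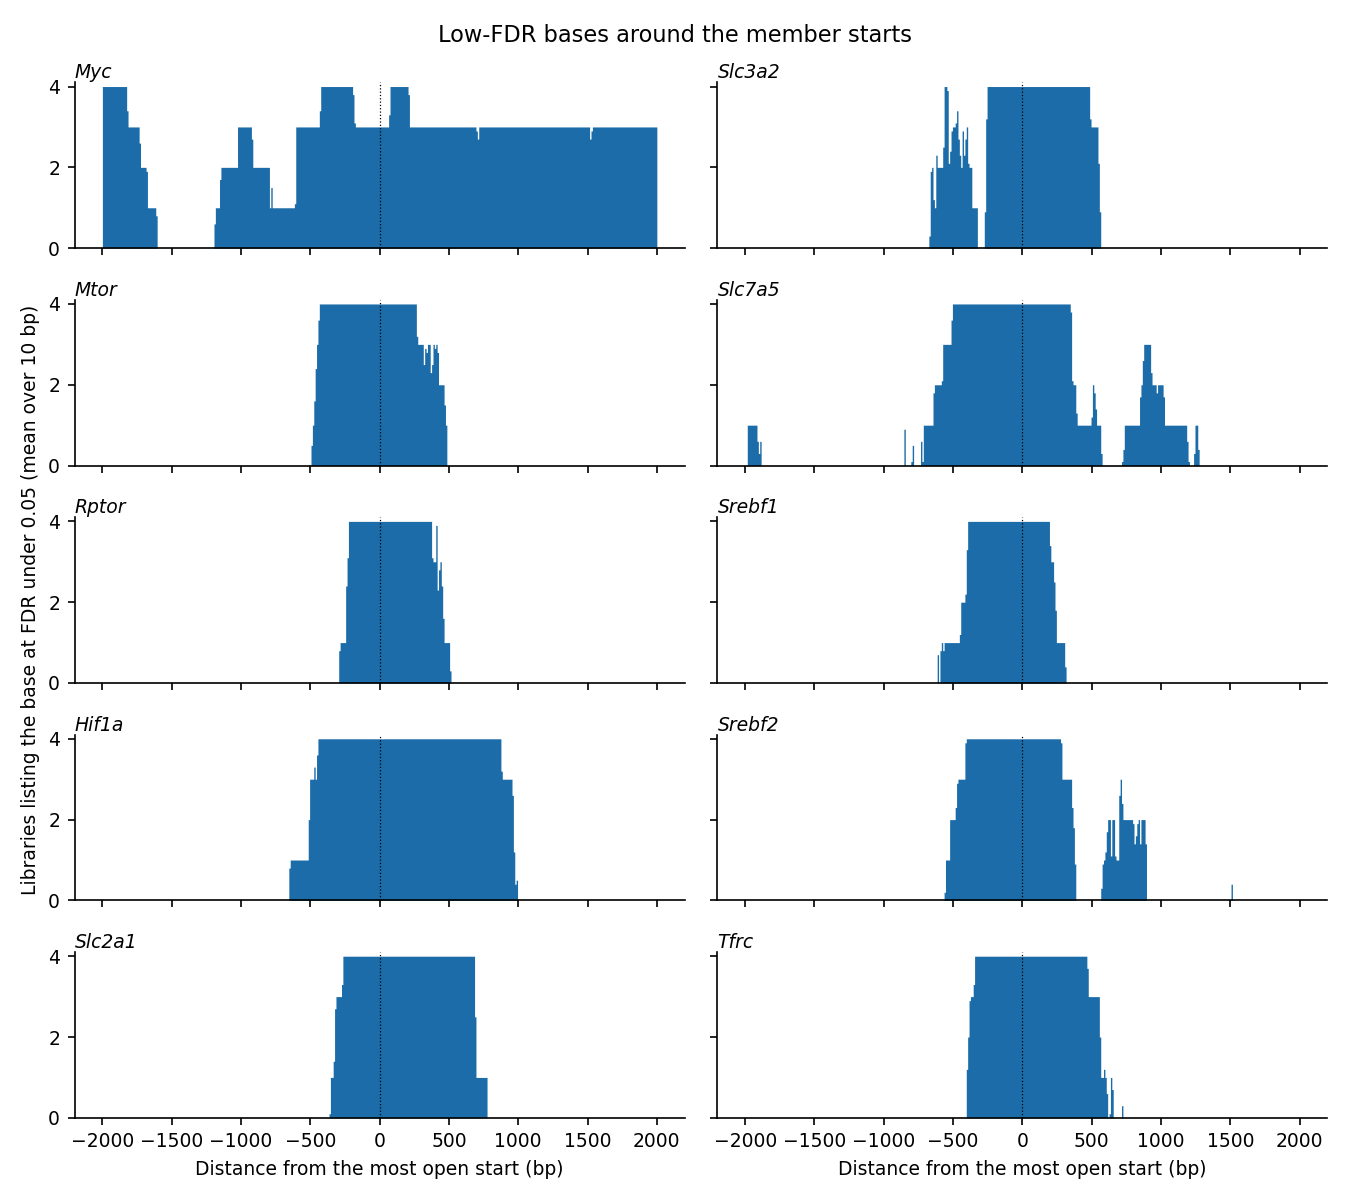
Number of libraries that list a base at FDR below 0.05, averaged in 10 bp bins, within 2 kb of the most open start of each gene, with the direction of transcription to the right. The block of Myc runs from about -600 bp to the right edge of the window, at 3 libraries for most of its length. It reaches 4 libraries only in short stretches, while the other 9 genes have a compact block at the start that all 4 libraries share.

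The strongest region near the Myc start lay 1.96 kb upstream of it, at the start of the noncoding gene Gm37947. Its signal was 2.82, 3.84, 5.86 and 2.23 in replicates 1 to 4 (3.69 ± 1.59 SD, n = 4), above the promoter of Myc in 4 of 4 libraries. A weaker region 3.67 kb upstream had 1.19 ± 0.817 and a replicate 3 value of 2.37 against 0.529 to 1.11 in the others. The upstream region is printed because it is stronger than the promoter it lies beside. Footprints, short stretches protected from cutting, that were called in at least 3 libraries with 50% reciprocal overlap are in capitals. Here and below, genomic sequence is that of the reference GRCm38.p6 (mm10), plus strand unless stated, and the CAST alleles of these cells can differ from it. The run is chr15:61983321-61983540.
Myc upstream region: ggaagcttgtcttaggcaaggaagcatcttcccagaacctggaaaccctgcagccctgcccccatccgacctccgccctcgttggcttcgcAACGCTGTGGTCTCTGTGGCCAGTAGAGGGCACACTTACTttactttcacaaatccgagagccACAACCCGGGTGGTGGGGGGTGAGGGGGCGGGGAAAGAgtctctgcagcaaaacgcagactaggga
The 2 footprints hold the letters AGNGGGC, the core of the motif of the looping factor CTCF, at bases 116 to 122 and 177 to 183 of the run, and the GC box GGGCGG at bases 180 to 185, which overlaps the second. On both strands, AGNGGGC occurred in 38.9% and GGGCGG in 36.5% of all recurrent regions, so a match is a description and not a site.

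In the 2 Mb beyond Myc, which hold the noncoding gene Pvt1 and few protein-coding genes, 23 recurrent regions were found, 12 of them in all 4 libraries. The same window beyond 21514 protein-coding genes held a median of 39 (quartiles 18 and 69), and 31.0% of genes had fewer. These counts include regions at protein-coding starts and so depend on gene content. Distal regions alone were not compared. Of the 23, 10 lay in Pvt1, 18 lay more than 1 kb from any transcript start, and all 23 lay more than 1 kb from a protein-coding start. The strongest lay 121 kb from the Myc start in a Pvt1 intron, beside the small noncoding gene model Gm27718. Its signal was 3.34, 4.15, 8.98 and 4.57 in replicates 1 to 4 (5.26 ± 2.53 SD, n = 4), above the Myc promoter in each library and above 95.7% of distal recurrent regions. Within 200 kb of the Myc start the next were in or just before Pvt1, at 184 kb with 2.84 ± 0.918, 193 kb with 1.89 ± 1.37, 46.9 kb with 1.35 ± 0.812 and 119 kb with 1.26 ± 0.706. The region at 52.5 kb, 1.21 ± 0.421, is the Pvt1 start itself.

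A second group lay far from Myc. After the region 839 kb from the start came a stretch of 824 kb with no recurrent region, in which 9 regions had a peak in 1 or 2 libraries. Beyond it, 9 recurrent regions, 4 of them in all 4 libraries, fell between 1663 and 1844 kb from the Myc start, a cluster whose bounds were chosen after its values were seen. The strongest was 1667 kb away in an intron of the noncoding gene Gm41335, with 3.18, 2.44, 3.92 and 1.30 in replicates 1 to 4 (2.71 ± 1.12). The next was 1737 kb away in an exon of the noncoding gene 4930449C09Rik, with 2.49, 2.82, 2.58 and 0.990 (2.22 ± 0.832). Both exceeded the Myc promoter in replicates 1 to 3, and only the first did in replicate 4. Clusters of enhancers at such distances downstream of Myc are known from blood stem cells and leukaemias, and no mark of enhancer activity was measured here. The farthest region, 1844 kb away, lay in an intron of Gsdmc2, of the gasdermin family, with 0.464 ± 0.315 and no peak in replicate 4.

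**Figure D3:**
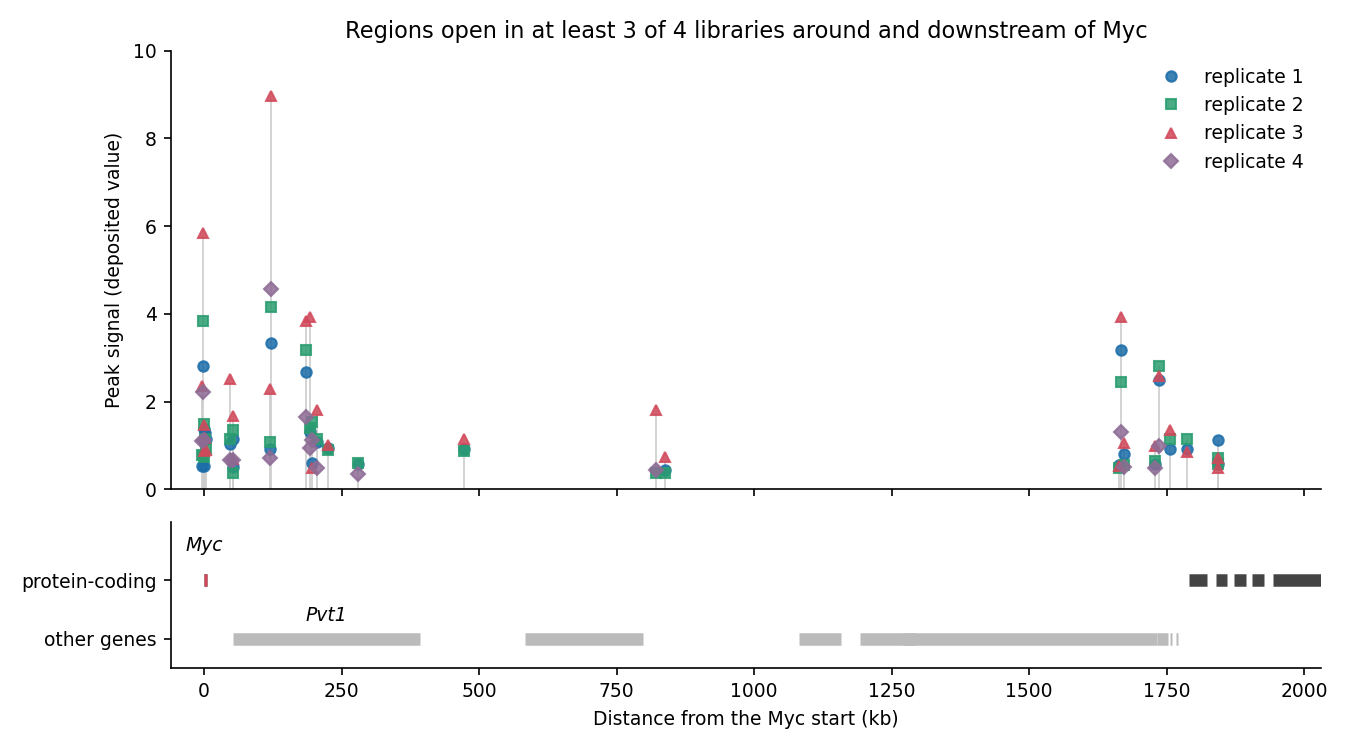
Signal of every recurrent region from 25 kb before to 2 Mb beyond Myc, by distance from its start in kb; points are libraries with a peak, grey lines reach the highest library, and the bars below are annotated genes. Most regions fall into a group near Myc and in Pvt1, with a highest value of 8.98 in replicate 3, and a far group from 1663 kb onwards.

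The strongest region in Pvt1 and the 2 strongest of the far group are printed, to show the leading DNA of each downstream group, with recurrent footprints in capitals. They are chr15:62106621-62106860, chr15:63652621-63652840 and chr15:63721801-63722020, in this order.
Pvt1 intron: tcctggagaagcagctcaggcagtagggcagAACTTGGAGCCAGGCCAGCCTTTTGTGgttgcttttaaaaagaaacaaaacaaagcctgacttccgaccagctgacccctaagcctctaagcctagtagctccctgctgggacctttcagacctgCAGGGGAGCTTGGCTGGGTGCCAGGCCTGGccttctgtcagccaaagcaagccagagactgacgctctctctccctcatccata
far region A: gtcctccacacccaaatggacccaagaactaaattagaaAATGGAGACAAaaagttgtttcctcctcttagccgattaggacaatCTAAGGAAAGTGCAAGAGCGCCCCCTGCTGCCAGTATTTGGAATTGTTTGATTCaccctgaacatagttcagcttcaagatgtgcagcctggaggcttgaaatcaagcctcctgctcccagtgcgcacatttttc
far region B: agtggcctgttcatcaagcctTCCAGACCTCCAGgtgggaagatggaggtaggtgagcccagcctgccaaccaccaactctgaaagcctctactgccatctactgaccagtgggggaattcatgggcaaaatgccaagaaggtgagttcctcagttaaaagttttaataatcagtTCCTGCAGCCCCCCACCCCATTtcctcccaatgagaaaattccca
Each had 2 recurrent footprints, covering 57 of 240, 65 of 220 and 35 of 220 bases. In far region A a footprint covers AGNGGGC at bases 105 to 111, read on the minus strand. It runs to 6 of the 7 bases of TGANTCA at bases 134 to 140. TGANTCA is a loose form of the AP-1 motif that allows any middle base. The middle base here is T, not the C or G of the usual AP-1 motif. In the Pvt1 intron the end of a footprint covers 4 of the 7 bases of TGTGGTT, the RUNX motif, at bases 55 to 61. TGANTCA occurred in 9.50% and TGTGGTT in 10.1% of all recurrent regions. In far region B the footprints held none of the 15 motifs searched, which says only that these letters are not there.

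Mtor, the kinase gene (ENSMUSG00000028991.15, chr4:148448611-148557683, plus strand), and Rptor, which encodes the scaffold that brings substrates to complex 1 (ENSMUSG00000025583.15, chr11:119602905-119899576, plus strand), had promoters of like strength and bodies that differed. The Mtor promoter had 4.63, 6.31, 9.78 and 5.02 in replicates 1 to 4 (6.43 ± 2.34 SD, n = 4). That of Rptor had 5.57, 5.53, 6.20 and 3.47 (5.19 ± 1.19). The values of the 2 genes overlap, and Mtor was the higher in replicates 2, 3 and 4. Within the 109 kb gene body of Mtor there was no recurrent region, and its promoter region ends just before the annotated start. The only distal region of its window, meaning one more than 1 kb from every protein-coding start, lay 18.7 kb upstream, with 0.613 ± 0.409 and no peak in replicate 4. The 297 kb body of Rptor held 11 recurrent regions, of which 8 were intronic and away from all transcript starts.

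With windows limited to the gene body and 25 kb flanks, Rptor had 14 distal regions, the most of the 10 genes and more than 99.7% of all genes. That window is also the longest of the 10, and per 100 kb its count of 4.04 was below those of Slc3a2 (10.5), Srebf1 (9.52), Tfrc (6.77), Srebf2 (6.47), Slc2a1 (6.31) and Myc (5.46). The strongest lay 68.3 kb into the gene, at chr11:119671041-119671360, with 2.40, 2.26, 5.94 and 2.84 in replicates 1 to 4 (3.36 ± 1.74 SD, n = 4). Another, 317 kb from the start and beyond the gene, had 2.46 ± 0.627. The intronic regions of Rptor shared a pattern that its own promoter did not. In the 7 of the 8 intronic regions with a peak in all 4 libraries, replicate 3 was 2.19 to 3.46 times the median of the others, which is the 77.5th to 97.6th percentile of distal regions. At the promoter of the same gene the ratio was 1.12, the 16.5th percentile of promoter regions. The promoter of Mtor, by contrast, had a ratio of 1.95, the 93.9th percentile of promoter regions. Replicate 3 is also the library in which NK marker promoters were highest, as given above. Whether the Rptor introns and these markers move together for the same reason was not tested.

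**Figure D4:**
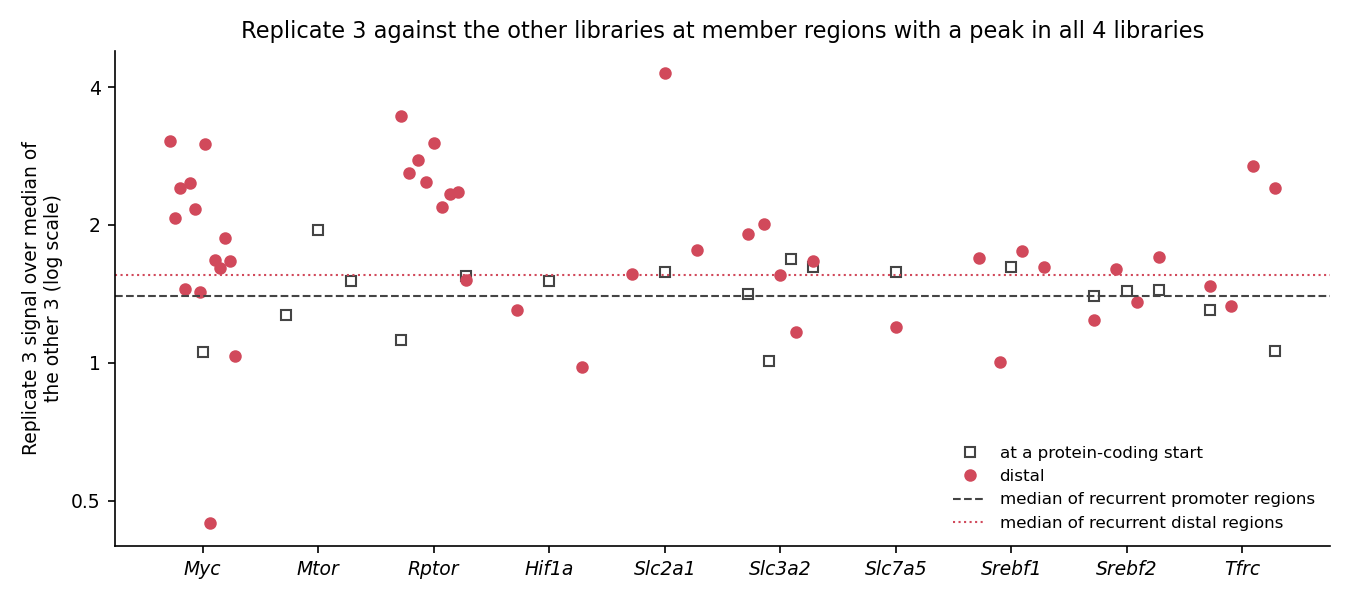
Signal of replicate 3 divided by the median of the other 3 libraries (log scale) at the regions with a peak in all 4 libraries, by gene and in order along the chromosome; open squares lie at protein-coding starts, filled circles are distal, and lines are genome-wide medians (1.40 and 1.56). The intronic regions of Rptor lie above the line together, and 1 region of Slc2a1 reaches 4.29.

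The Mtor promoter is printed because 4 recurrent footprints cover it. It is the 250 bases before the RefSeq start (GRCm38.p6), chr4:148448332-148448581.
Mtor promoter: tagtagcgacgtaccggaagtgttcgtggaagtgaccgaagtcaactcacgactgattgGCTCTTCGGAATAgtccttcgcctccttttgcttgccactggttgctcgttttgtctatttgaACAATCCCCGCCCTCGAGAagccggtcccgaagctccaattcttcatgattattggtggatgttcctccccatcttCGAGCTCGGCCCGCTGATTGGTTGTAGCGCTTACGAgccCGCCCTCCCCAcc
Footprints cover 79 of its bases. CCAAT, the NF-Y motif, occurs 4 times, at bases 56, 158, 174 and 215 of the run, and only the last copy lies wholly in a footprint. The GC box lies in a footprint at bases 130 to 135 and, but for 1 base, at bases 237 to 242, and AGNGGGC lies in one at bases 207 to 213. The letters CCGGAAGT, an ETS motif, are at bases 14 to 21, outside the footprints. In promoter windows of 300 bases, 250 before to 50 after a RefSeq start, CCAAT was in 37.4%, GGGCGG in 35.7% and CCGGAAGT in 3.89% of 32851 promoters.

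Hif1a, the oxygen-regulated subunit of the hypoxia factor HIF-1 (ENSMUSG00000021109.13, chr12:73901375-73947530, plus strand), had no peak in any library within 1 kb of its annotated gene start. A region 6.50 kb inside the gene, chr12:73907701-73908040, lies at another annotated start and at the RefSeq start. Its signal was 4.20, 6.67, 8.68 and 7.10 in replicates 1 to 4 (6.66 ± 1.86 SD, n = 4), which would place Hif1a beside Mtor. Around this start 1331 bases were listed at low FDR in all 4 libraries, the longest such stretch of the 10 genes in a 4 kb window. The region held 6 recurrent footprints. A weaker region, 7.17 kb from the annotated start, was even across libraries, with 0.975, 1.25, 1.20 and 1.22.

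The Hif1a promoter is shown because its footprints fall on E-box letters. It is chr12:73907617-73907866, the 250 bases before the RefSeq start.
Hif1a promoter: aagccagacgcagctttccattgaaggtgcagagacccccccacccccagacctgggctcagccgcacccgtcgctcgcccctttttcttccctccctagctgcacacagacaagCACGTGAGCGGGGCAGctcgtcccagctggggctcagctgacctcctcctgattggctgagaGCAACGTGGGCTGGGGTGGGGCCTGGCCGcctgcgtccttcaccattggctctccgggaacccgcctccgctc
The first footprint begins with the E-box CACGTG at bases 116 to 121, which contains the core of the hypoxia response element, ACGTG, on each strand. The second footprint holds a further ACGTG at bases 181 to 185. Both copies of CCAAT, at bases 167 to 171 and 222 to 226, lie outside footprints. Hif1a was the only one of the 8 genes with a RefSeq promoter entry to have CACGTG there, against 7.15% of all RefSeq promoters. ACGTG was in promoters of 5 of the 8 genes, Hif1a, Rptor, Slc2a1, Slc3a2 and Tfrc, and in 19.6% of all.

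Slc2a1 (ENSMUSG00000028645.11, chr4:119108711-119137983, plus strand) encodes GLUT1, the main glucose carrier of activated lymphocytes. Its promoter had 3.95, 5.50, 8.68 and 6.70 in replicates 1 to 4 (6.21 ± 2.00 SD, n = 4). Its strongest distal regions were 2.78 kb upstream, with 2.58 ± 0.622, and 18.6 kb into the gene, with 1.65 ± 0.569. At the latter, replicate 3 stood at 2.49 and the others between 1.26 and 1.42, a ratio at the 61.3rd percentile of distal regions. The neighbouring intronic region at 17.4 kb had 0.623, 0.816, 3.50 and 1.39. Its ratio of 4.29 between replicate 3 and the median of the others was above that of 99.5% of distal regions, and its mean of 1.58 ± 1.32 is thus set largely by 1 library.

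Slc3a2 (ENSMUSG00000010095.13, chr19:8706882-8723369, minus strand) and Slc7a5 (ENSMUSG00000040010.10, chr8:121881150-121907694, minus strand) encode the chains of a single amino acid carrier, the shared heavy chain CD98 and the light chain LAT1, which brings leucine into the cell. Slc3a2 had the highest promoter signal of the 10 genes, with 8.003, 9.78, 13.8 and 12.5 in replicates 1 to 4 (11.02 ± 2.62 SD, n = 4), between the 91.7th and 96.1st percentile of all genes. Slc7a5 had 4.55, 5.85, 9.11 and 5.78 (6.32 ± 1.95), below Slc3a2 in 4 of 4 libraries. The annotated Slc3a2 start is shared with the divergent noncoding gene Snhg1, so its signal cannot be given to either gene. About 10 kb inside, around the RefSeq start of Slc3a2, 4 further regions lay at other annotated starts, the strongest with 5.04 ± 1.12 at chr19:8713301-8713500 and the next with 4.61 ± 2.28 at chr19:8712861-8713140. Taken at those starts alone, Slc3a2 would stand near Rptor. Slc7a5 had only 2 distal regions in its window, 2.23 kb upstream with 1.27 ± 0.849 and no peak in replicate 4, and 18.1 kb upstream with 1.26 ± 0.176. Its start lies inside the readthrough gene model Gm20388, and BC048644 also has a start within 1 kb of the promoter region.

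Srebf1 (ENSMUSG00000020538.15, chr11:60199089-60222581, minus strand) and Srebf2 (ENSMUSG00000022463.8, chr15:82147181-82205379, plus strand) encode the SREBP factors, membrane-bound until sterols are low, of which SREBP-1 acts mainly on fatty acid genes and SREBP-2 on cholesterol genes. Srebf2 had a strong promoter at the annotated start, with 7.40, 10.1, 12.0 and 8.34 in replicates 1 to 4 (9.45 ± 2.02 SD, n = 4). When each library was scaled by its median promoter signal, its coefficient of variation was 6.93%, the smallest of the 9. Srebf1 was weak at its annotated start, with 2.09, 3.23, 3.38 and 1.49 (2.55 ± 0.911), and strong at starts further in. The region 2.08 kb inside had 6.49, 8.23, 10.5 and 5.68 (7.72 ± 2.14). That at 12.1 kb had 6.35, 7.66, 13.4 and 9.92 (9.34 ± 3.10), as high as the Srebf2 promoter. In each library both exceeded the annotated start. A further inner region, 22.8 kb from the annotated start in its untranslated 3′ end and beside the microRNA gene Mir6921, was flat across replicates 1 to 3, with 3.16, 3.44 and 3.17, and had 1.76 in replicate 4. Alternative first exons are known to give SREBP-1a and SREBP-1c, and these peaks do not measure which transcript is made.

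The 250 bases before the RefSeq starts at these inner regions are printed on the minus strand, 5′ to 3′, for comparison of the promoters. They are chr11:60220628-60220877, the middle start, and chr11:60210472-60210721, the downstream start.
Srebf1 middle start: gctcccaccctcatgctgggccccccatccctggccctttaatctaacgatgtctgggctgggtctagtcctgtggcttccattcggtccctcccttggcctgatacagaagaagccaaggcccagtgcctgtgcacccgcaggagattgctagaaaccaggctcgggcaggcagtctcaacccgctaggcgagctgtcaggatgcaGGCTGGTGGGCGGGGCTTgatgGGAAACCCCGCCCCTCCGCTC
Srebf1 downstream start: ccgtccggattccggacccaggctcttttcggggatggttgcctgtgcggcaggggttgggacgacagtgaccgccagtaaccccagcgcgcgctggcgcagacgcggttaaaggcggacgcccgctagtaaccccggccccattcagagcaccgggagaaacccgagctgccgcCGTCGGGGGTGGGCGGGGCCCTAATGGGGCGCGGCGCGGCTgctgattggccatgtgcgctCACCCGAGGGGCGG
Both have GC boxes inside footprints close to the start, at bases 215 to 220 and 237 to 242 of the first run and at bases 186 to 191 and 245 to 250 of the second. The downstream start also has CCAAT at bases 221 to 225, outside the footprints, and the middle start has none. The sterol element TCACNCCAC was in none of the 11 RefSeq promoters of the 8 genes and in 1.24% of all. It was in 3 of the 100 member regions, against 1.57% of all recurrent regions. Among them were the regions at the annotated starts of Srebf1 and Myc. No match lay wholly inside a recurrent footprint.

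Srebf2 carried the strongest distal region of the 10 genes that lay away from every transcript start, 18.3 kb into the gene in an intron. Its signal was 5.09, 5.58, 8.14 and 3.21 in replicates 1 to 4 (5.50 ± 2.03 SD, n = 4), higher than 96.0% of distal recurrent regions. It is printed for that reason, at chr15:82165401-82165600.
Srebf2 intron: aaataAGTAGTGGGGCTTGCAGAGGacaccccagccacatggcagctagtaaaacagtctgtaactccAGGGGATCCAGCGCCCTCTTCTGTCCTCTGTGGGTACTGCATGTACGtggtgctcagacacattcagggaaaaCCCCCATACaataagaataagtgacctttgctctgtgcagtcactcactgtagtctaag
Of its 3 footprints, which cover 76 of 200 bases, the middle one holds AGNGGGC at bases 81 to 87, read on the minus strand. The other distal region of high signal, 8.45 kb upstream in an intron of Ccdc134, had 1.57 ± 0.413. A region 50.3 kb into the gene, at the microRNA gene Mir33, which lies in a Srebf2 intron, was weak, with 0.787, 0.765 and 1.49 in replicates 1 to 3 and no peak in replicate 4.

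Tfrc (ENSMUSG00000022797.16, chr16:32608920-32632794, plus strand) encodes the transferrin receptor, CD71, which takes up iron and is raised on dividing lymphocytes. Its promoter had 5.57, 8.29, 10.8 and 9.13 in replicates 1 to 4 (8.45 ± 2.18 SD, n = 4), below Srebf2 in 3 of 4 libraries. No further recurrent region lay in its 23.9 kb body. The strongest distal regions were beyond the gene, 29.8 kb from the start with 2.68 ± 0.766 and 42.2 kb away in an intron of Tnk2 with 2.12 ± 1.14.
The promoter region held 3 recurrent footprints that cover 109 bases. The run chr16:32608646-32608895, the 250 bases before the upstream one of 2 RefSeq starts, is shown for the footprint of 28 bases it holds, in which none of the motifs searched was found. AGNGGGC lies in a footprint just past the run, at 32608921 to 32608927.
Tfrc promoter: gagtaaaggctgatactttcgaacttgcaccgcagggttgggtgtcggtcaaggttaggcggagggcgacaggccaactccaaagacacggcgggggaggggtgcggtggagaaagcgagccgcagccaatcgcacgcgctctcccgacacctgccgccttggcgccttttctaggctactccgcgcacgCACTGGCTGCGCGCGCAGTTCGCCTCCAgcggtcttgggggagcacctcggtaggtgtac

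Around the 10 genes together, 54 distal recurrent regions lay in the gene bodies and 25 kb flanks, and all 10 genes had at least 1, as did 59.2% of all protein-coding genes. The median was 5 per gene, against 1 over all genes, and the density was 4.76 per 100 kb against 1.66. The windows differ in length and in gene content, and the 54 include 17 regions at starts of other transcripts or of other transcripts of the same gene. Counts ranged from 14 at Rptor, through 7 at Slc3a2, Srebf1 and Srebf2, 5 at Slc2a1 and Tfrc, 3 at Myc and Hif1a and 2 at Slc7a5, to 1 at Mtor. Of the 100 regions of all windows, including those downstream of Myc, 54 had their centre in an intron, 30 between genes and the rest in exons.

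The ratio of replicate 3 to the median of the other libraries was set against all regions of the same class for the 65 regions with a peak in all 4 libraries. Of 46 distal regions, 31 were above the genome-wide median of the ratio for distal regions and 7 were above its 90th percentile. Of 19 at starts, 13 and 1 were above the corresponding marks, so the share above the median was alike in both classes, and the difference above the 90th percentile was not tested. The lowest ratio, 0.447, was that of the region 196 kb from Myc in Pvt1, where replicate 3 had 0.498 and replicate 2 had 1.54.

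In all, 119 footprints were found in at least 3 libraries within the 100 regions. Footprints covered 11.8% ± 1.63 (SD, n = 4) of the bases of the member regions with a peak, against 13.1% ± 2.07 in all recurrent regions. The member share was lower in 4 of 4 libraries, with a difference of -1.24 ± 0.698 percentage points that exceeds its spread between libraries. In replicate 4 the difference was only -0.216. Distal regions made up 77 of the 100 member regions and 23620 of all 36595. The shares were not compared within a class of region, so the part of this mix was not tested. Of the 15 motifs, CACGTG was in 11 of the 100 regions (9.01% of all recurrent regions), ACGTG in 29 (24.1%), TGTGGTT in 14 (10.1%), CCAAT in 33 (30.8%) and AGNGGGC in 37 (38.9%). These shares stand near those of all regions. A whole match inside a recurrent footprint was seen for GGGCGG in 17 of the 100 regions (15.4% of all recurrent regions), AGNGGGC in 15 (13.3%), ACGTG in 5 (2.70%), CCAAT in 4 (3.16%) and CACGTG in 3 (1.37%). The 3 regions with a footprinted CACGTG were the Hif1a promoter and introns of Rptor 40.7 and 261 kb from its start.

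Genes that act with these members were examined by the same measure. Of 95 protein-coding genes in 6 lists, 82 (86.3%) had an open promoter at the annotated start and 90 at any start, against 50.3% and 54.7% of all genes. In the MYC network, 13 of 13 were open, with a median signal of 4.62 against 0.407 over all genes. The median over genes with an open promoter was 4.58, so the level of this list was near that of open promoters in general. The highest were Fbxw7, which targets MYC for degradation (18.3 ± 4.56 SD, n = 4), and the MAX partners Mxd1 (17.0 ± 5.57) and Mxd4 (13.2 ± 3.00), which oppose MYC. All 3 were far above the Myc promoter in each library.

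For mTOR complexes and regulators, 27 of 28 were open, with a median of 8.69. Rragc, a GTPase that brings complex 1 to the lysosome, had 19.4 ± 3.77, Eif4ebp2, a translation repressor phosphorylated by mTOR, had 18.4 ± 4.99, and Ulk1, the autophagy kinase that mTOR inhibits, had 17.4 ± 4.50. Pdpk1, the kinase that activates AKT, had no peak at its annotated start but was open at another. In the hypoxia list 7 of 8 were open (median 2.09), led by Egln2, a prolyl hydroxylase (8.76 ± 1.37), Hif1an, the asparaginyl hydroxylase (8.70 ± 2.56), and Arnt, the HIF-1α partner (5.25 ± 1.11). Hif3a had no peak at its annotated start and no recurrent region at any start.

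Among nutrient carriers and glycolytic genes 16 of 20 were open (median 2.58). Atf4, the amino acid stress factor, had 14.02 ± 2.91, the glutamine carrier Slc1a5 had 8.47 ± 1.36 and Gapdh had 7.75 ± 2.24. Hk1 and Ldha lacked a peak at the annotated start and were open at another. Of the sterol and fatty acid genes 14 of 16 were open (median 5.26), the highest being Mbtps1, the protease that cleaves SREBP (13.8 ± 2.39), Insig1, which holds SREBP in the endoplasmic reticulum (13.1 ± 3.37), and the synthase gene Hmgcs1 (11.9 ± 3.33). Insig2 was open only at another start.

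In the iron list 5 of 10 were open at the annotated start (median 0.852), near the 50.3% of all genes, and 8 of 10 at any start, against 54.7%. Ncoa4, the ferritin autophagy receptor (15.7 ± 2.57), and the iron regulatory protein genes Ireb2 (12.7 ± 3.18) and Aco1 (9.90 ± 1.81) had strong promoters. Fth1, Hamp, Slc40a1 and Steap3 had no peak at the annotated start in any library. Fth1, the ferritin heavy chain, and Steap3, the endosomal iron reductase, were open at another start. Hamp, the liver hormone hepcidin, and Slc40a1, the iron exporter, were not.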

How the data were processed

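DNase-seq of NK cells was deposited as 4 libraries of 1 group. Per the deposited readmes, the authors derived each library's peaks, FDR bases and footprints from its own filtered mm10 alignments, not from pooled libraries. The names of the aligner and peak callers were not given in the sources used here. Each peak has a signal, deposited by the authors as whole multiples of a step that differs between libraries. The number of reads is not given, so depth is unknown and no counting interval is printed. The deposited FDR values, which are of the q-value kind, list bases below 0.05, and the deposited footprints carry a constant p-value of 0.01.

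The longer of each library's 2 peak lists was used, on chromosomes 1 to 19 and X. Touching peaks were merged with Python 3.11.15 and pandas 2.3.3, and bases were read with pysam 0.24.0. Genes are GENCODE vM21. Promoter windows are 1 kb on either side of a gene start, and distal regions lie outside all such windows of protein-coding genes. RefSeq promoter sequences (GRCm38.p6) matched 8 of 10 members, not Myc and Slc7a5. Merging and counting were tested on simulated data.

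Named regions are, per member, that at the promoter and the 2 strongest distal ones, and downstream of Myc the 8 strongest and the farthest. Pathway genes named are the 3 highest of each list and up to 4 without a peak. Regions with a clause of their own beyond these were chosen after their values were seen, as was the comparison of gene bodies. The members and lists were chosen with earlier results of these data known. Alternatives were the shorter peak list, other numbers of libraries, equal numbers of strongest peaks, other windows and starts, and each library left out.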

Additional observations from a re-analysis of the deposited data

Results flagged for a closer look

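Of 43 sets of 4 library values examined for the members (promoter signals, low-FDR shares and named regions with a peak in all 4 libraries), 3 had a library that stood far from the others, and in all 3 it was replicate 3. Chance flags about 1 in 20 such sets, and 3 of 43 is near that rate. At the region 193 kb from the Myc start in Pvt1, replicate 3 had a signal of 3.92 and the others 0.951 to 1.39. At the Rptor intron region 68.3 kb from the start, replicate 3 had 5.94 and the others 2.26 to 2.84. At the Slc2a1 intron region 18.6 kb from the start, replicate 3 had 2.49 and the others 1.26 to 1.42. The ratio of replicate 3 to the median of the others was 1.76 there, only the 61.3rd percentile of distal regions. It was at the 94.5th percentile for the Myc region and the 85.8th for the Rptor region. All 3 are intronic and distal, a trait not compared with the rest of the 43 sets. Replicate 3 is the library with the most peaks and had the highest signal at 71.5% of all recurrent regions. Its part in these values was not tested.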

How the results depend on the processing

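No paired analysis was possible because all 4 libraries belong to 1 group. Of 71 recomputed summary values, 57 stayed within 1.5 times the reported count or within 1 SD of the reported level. The count of 9 open member promoters was 9 in every alternative except any transcript start, where it was 10, and the pathway count of 82 stayed between 78 and 90. The 54 distal regions became 89 with presence in at least 1 library, 34 with all 4 libraries and 29 in the gene body alone, and the 23 regions downstream of Myc became 59 and 12 with those library rules, 13 with the shorter peak list, 15 with the same number of strongest peaks and 14 within 1 Mb. The 119 recurrent footprints fell to 57 with all 4 libraries. The median low-FDR share of 48.1% was 41.1% at an FDR of 0.01, 37.0% at 0.001 and 83.5% in the inner 500 bp on either side, and the 192 motif and region pairs became 115 in the central 150 bp and 49 inside footprints. Without 1 library, where presence in 2 of the other 3 sufficed, the ranges were 9 open promoters, 54 to 60 distal regions, 24 to 32 regions downstream of Myc, 81 to 84 pathway genes, 150 to 172 footprints, a median signal of 5.35 to 6.94 and a median low-FDR share of 45.7% to 50.7%. The Myc promoter share at low FDR was 91.7% without replicate 4 and 73.5% with it. Depth is not given, so a missing peak in replicate 4 does not show closed chromatin.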

Other observations

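The member windows also held 9 recurrent regions at starts of other protein-coding genes. The strongest were those of Snapc1, a subunit of a complex needed to transcribe small nuclear RNA genes, next to Hif1a (9.84 ± 2.23 SD, n = 4), and of Stx5a, a Golgi syntaxin, near Slc3a2 (9.75 ± 2.52). Beside Srebf2 lay Ccdc134 (7.37 ± 1.90) and Tnfrsf13c, which encodes the BAFF receptor of B cells (1.82 ± 0.384, in 4 of 4 libraries). Beside Mtor lay Exosc10, an RNA exosome subunit (4.49 ± 1.36).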
